A study of Mus musculus with 18 samples.

Results

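The retinoblastoma family comprises Rb1, the gene deleted in this study, and its relatives Rbl1, which encodes p107, and Rbl2, which encodes p130. The members described here are all peaks of 8 deposited histone peak lists that overlapped a window around each gene in mouse build NCBIM37: chromosome 14 from 73.58 to 73.74 Mb for Rb1, chromosome 2 from 156.96 to 157.04 Mb for Rbl1 and chromosome 8 from 93.58 to 93.66 Mb for Rbl2. The rule found 59 peaks among 225177 in all lists, 25 of them in the Rb1 window, 21 in the Rbl1 window and 13 in the Rbl2 window.

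The cells were mouse embryonic fibroblasts (MEFs) of mixed B6;129 background with a conditional knockout allele of Rb. The Cre group was infected with an adenovirus carrying the Cre recombinase, which deletes the conditional allele, and the GFP group with an adenovirus carrying green fluorescent protein as the control. Both groups carried the conditional allele, neither received the 4F construct used elsewhere in the series, and both were expanded for at most 3 passages before chromatin was prepared. Chromatin was immunoprecipitated and sequenced for H3K4me3, acetylated H3 (H3Ac), H3K27me3 and H3K9me3, with 1 library per mark and condition. There was therefore no replicate check of any difference between Cre and GFP cells, and no p-value is given. The sample titles call each of these libraries biological replicate 3. They call the histone input library biological replicate 1 in GFP and biological replicate 3 in Cre cells. The lists measure neither RNA nor the deletion, so the share of Cre cells that had lost Rb is unknown here. The fibroblast identity of the cells could not be checked against marker genes, because no gene annotation of build NCBIM37 was used here.

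The 3 proteins are known as pocket proteins. They bind E2F transcription factors and hold back genes of the cell cycle until cyclin-dependent kinases phosphorylate them. Rb mainly restrains the activating E2F factors. The proteins p107 and p130 work with the repressive E2F factors, p130 chiefly in resting cells and p107 chiefly in cycling cells. Rbl1 is itself known as an E2F-regulated gene, whereas p130 is regulated to a large extent through protein stability. H3K4me3 and H3Ac are typical of active promoters. H3K27me3 is the product of Polycomb enzymes and accompanies gene silencing, and H3K9me3 is a mark of constitutive heterochromatin.

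The bases just before the annotated start are shown for Rbl1 and Rbl2, because no promoter sequence was available here for Rb1. RefSeq promoter sequences on build GRCm38.p6 were matched by symbol for 2 of the 3 genes, and the 250 bases before the start were searched on both strands for the words TTTCCCGC, TTTCGCGC, TTTGCCGC and TTTGGCGC, forms of the E2F recognition sequence. The capitals mark a match. The Rbl1 sequence lies on the minus strand of chr2:157204535-157204784 and the Rbl2 sequence on the plus strand of chr8:91069807-91070056.
Rbl1: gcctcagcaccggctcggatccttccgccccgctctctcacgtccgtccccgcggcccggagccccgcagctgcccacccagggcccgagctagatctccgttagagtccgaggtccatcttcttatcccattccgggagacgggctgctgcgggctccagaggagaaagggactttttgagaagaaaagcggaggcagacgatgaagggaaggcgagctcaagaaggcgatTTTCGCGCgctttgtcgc
Rbl2: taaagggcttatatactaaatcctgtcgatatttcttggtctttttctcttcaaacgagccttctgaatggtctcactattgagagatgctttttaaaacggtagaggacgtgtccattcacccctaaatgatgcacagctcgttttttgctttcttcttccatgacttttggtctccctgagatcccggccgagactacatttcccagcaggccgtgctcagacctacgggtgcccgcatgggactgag
The Rbl1 sequence held TTTCGCGC on its own strand, from 18 to 11 bases before the start, and none of the 4 words was found in the Rbl2 sequence. Of 32851 RefSeq promoter sequences cut to the same length, 1.86% held at least 1 of the words. The Rbl1 sequence was also richer in CpG, with 24 CpG dinucleotides and 63.6% G or C, against 10 and 46.8% in the Rbl2 sequence and medians of 6 and 52.4% over all promoters. These letters were read on another build than the peaks, so they were not placed inside a peak, and a match is not evidence of a bound factor. Genes and words were chosen with earlier results of these data known, so a match in Rbl1 alone is no test. Whether it relates to any peak difference was not tested.

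Each list gives a peak's position and a score without a unit. Scores were read within a list, as the percentage of peaks in that list that scored higher, so that 0% is the top of the list. The score had a ceiling: 5743 Cre and 4367 GFP H3K4me3 peaks had exactly 3100, with median widths of 2961 and 2874 bases, while the 212 and 205 peaks listed above 3100 were narrower, with medians of 2394 and 2128 bases. Peaks at or above 3100 were therefore not ranked against each other. They made up 26.3% of the Cre and 19.2% of the GFP H3K4me3 list, and 5.64% of the Cre and 6.57% of the GFP H3Ac list. The number of reads behind each list is unknown. To compare conditions, peaks were also taken as uniquely paired where each overlapped no other peak of the opposite list, and ranked as percentiles among such pairs of the mark, with scores of 3100 and above tied at the top.

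The windows held 26 peaks in Cre and 33 in GFP cells. By window this was 11 in Cre and 14 in GFP cells for Rb1, 9 in Cre and 12 in GFP cells for Rbl1, and 6 in Cre and 7 in GFP cells for Rbl2. The active-promoter mark H3K4me3 was the most constant in number: each window held 3 peaks in each condition, and each had a counterpart (an overlap of at least 1 base) in the other. Among all H3K4me3 peaks, 12.6% of the Cre and 10.7% of the GFP peaks had none, so that 0 of 9 in each condition was near the list shares. All 9 Cre and all 9 GFP H3K4me3 peaks of the windows overlapped H3Ac, as did 85% of all Cre and 80.1% of all GFP H3K4me3 peaks.

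**Figure D1:**
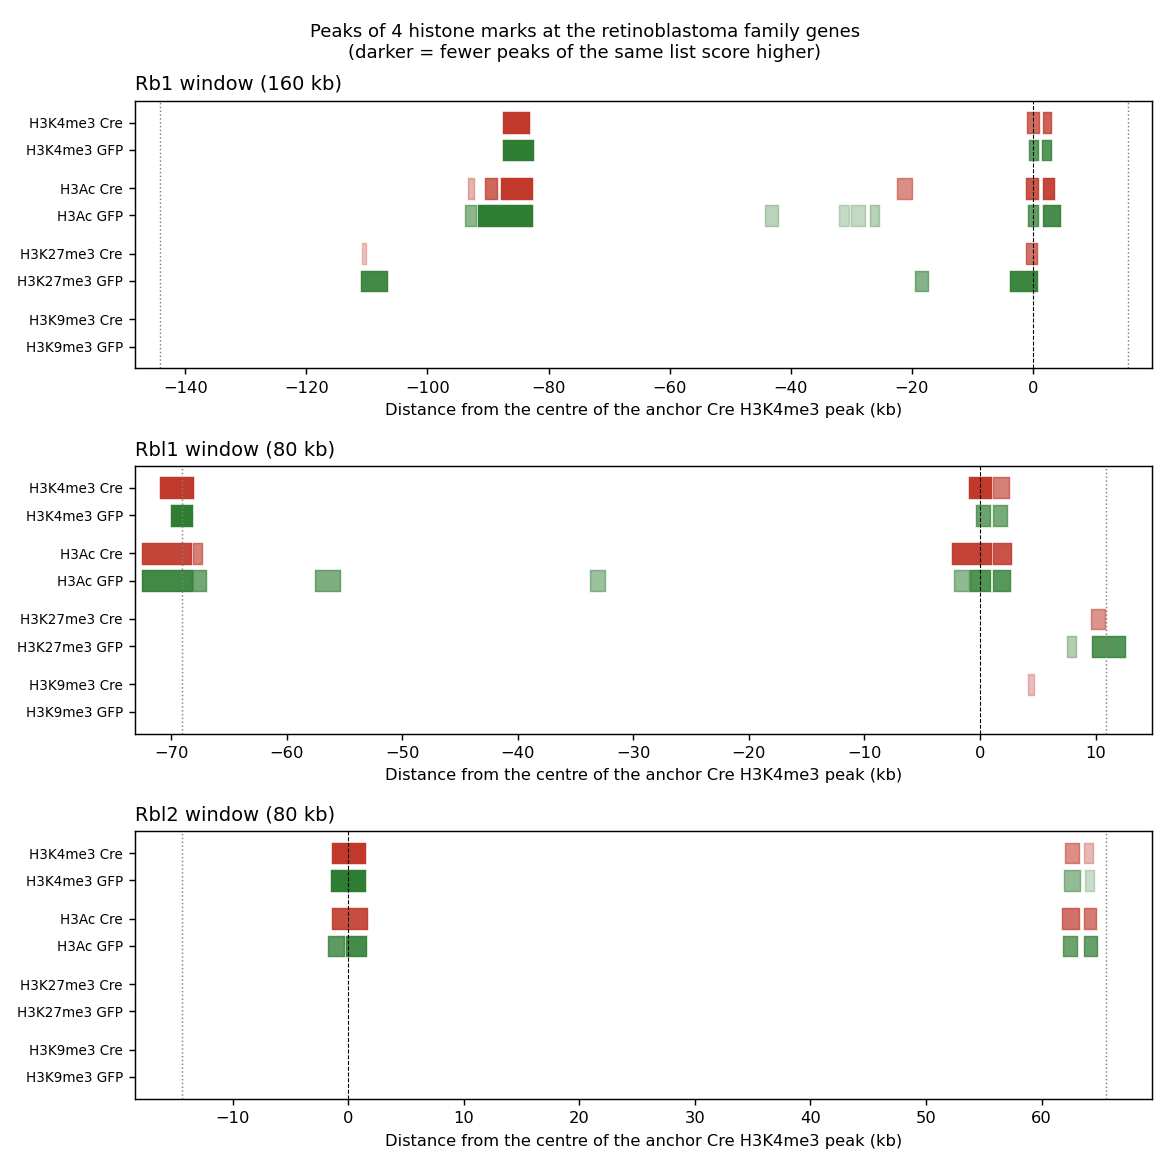
Peaks of each list (rows, Cre above GFP) along the 3 windows, in kb from the centre of a Cre H3K4me3 peak (dashed line). Dotted lines are the window ends, and darker bars are peaks with fewer higher-scoring peaks in their own list. All 3 H3K4me3 sites of each window were present in both conditions, while the H3K27me3 bars of the Rb1 window covered 2.32 kb in Cre cells and 10.99 kb in GFP cells.

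Acetylation differed more in number. There were 13 H3Ac peaks in Cre cells, 1 of them without a GFP counterpart, against 19 in GFP cells, 6 of them without a Cre counterpart. The whole H3Ac lists held 42660 peaks in Cre and 48778 in GFP cells. The share without a counterpart over the whole lists was 15.4% in Cre and 26.6% in GFP cells, so that 1 of 13 and 6 of 19 did not stand far from the lists. For the Polycomb mark H3K27me3 there were 3 peaks in Cre and 5 in GFP cells. Of these, 0 of the Cre and 2 of the GFP peaks had no counterpart, against 33.6% and 30.5% of the lists. H3K9me3 gave 1 peak in Cre cells, in the Rbl1 window and without a counterpart, as for 39.9% of the Cre H3K9me3 list, and no peak in GFP cells. The whole H3K9me3 lists held 3985 peaks in Cre and 10885 in GFP cells.

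**Figure D2:**
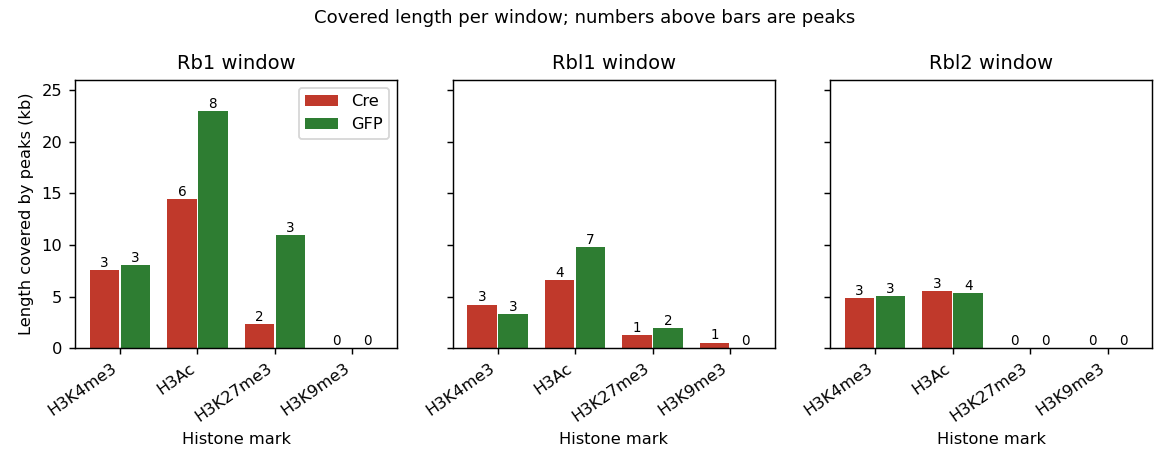
Length covered by peaks (kb, bars from 0) for each mark and window, Cre in red and GFP in green, with the number of peaks above each bar. H3K27me3 and H3Ac covered less in Cre cells in the Rb1 window (Cre over GFP ratios 0.212 and 0.629) and in the Rbl1 window (0.622 and 0.672), and the H3K4me3 ratio was 0.940 for Rb1, 1.28 for Rbl1 and 0.963 for Rbl2.

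In the window of Rb1, the gene with the conditional allele, Polycomb-marked chromatin was shorter and ranked lower in Cre cells. The 3 H3K4me3 peaks were kept and H3Ac covered less of the window. Cre acts within this gene, and where the removed bases lie relative to the peaks was not tested. H3K27me3 peaks covered 2.32 kb in Cre cells and 10.99 kb in GFP cells, a ratio of 0.212. Over autosomal tiles of 160 kb with an H3K27me3 peak in either list, 27.8% were covered at least 1.5 times less in Cre cells and 16.3% at least 1.5 times more. A covered length at least 1.5 times lower was thus not unusual among such tiles, which include tiles with a peak in Cre or GFP cells alone. How many tiles had a ratio as low as 0.212 was not tested.

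The H3K27me3 peak nearest the high-coordinate end of the Rb1 window was the strongest of that mark in both conditions. In Cre cells it reached from 73723170 to 73724937, a width of 1768 bases, and scored 187.62. In GFP cells it reached from 73720447 to 73725000, a width of 4554 bases, and scored 717.88. In the Cre list 38.6% of peaks scored higher (exact 95% interval 38.1 to 39.1), and in the GFP list 9.52% (9.22 to 9.83). Such intervals do not measure variation between libraries. The peak ended within 63 bases of the same place in both lists, and the missing part in Cre cells lay on the low-coordinate side. Its width in Cre cells was 0.388 of that in GFP cells, and 1.88% of 15406 uniquely paired H3K27me3 peaks had a lower ratio.

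Another H3K27me3 peak of the window, nearer its low-coordinate end, was shorter still in Cre cells. In Cre cells it reached from 73613472 to 73614027, a width of 556 bases, and scored 54.55, close to the lowest score of the list. In GFP cells it reached from 73613315 to 73617594, a width of 4280 bases, and scored 552.26. It was outranked by 93.6% of the Cre list and by 13.1% of the GFP list. The width ratio was 0.130, and 0.00649% of paired peaks, 1 in the whole set, had a lower one. A further GFP peak, which lay from 73704764 to 73706916 and scored 111, had no Cre counterpart. Both paired peaks of the windows were thus at least 1.5 times narrower in Cre cells, as were 12.8% of all pairs, and 5.82% of the 2921 pairs whose GFP score was at least 500. None was as much wider, against 15.4% of all pairs. Both also ranked at least 10 percentile points lower, as did 26.9% of all pairs and 11% of those with a GFP score of at least 500. None ranked as much higher, against 26.2% of all pairs. The GFP score limit of 500 was chosen after the values were seen. Both peaks passed it in the condition where they ranked higher, so those shares are no independent background.

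The same end of the Rb1 window held a pair of H3K4me3 peaks. In Cre cells the left one lay from 73723231 to 73725228 and scored 2167.74, and the right one lay from 73725851 to 73727183 and scored 2796.28. In GFP cells the left one lay from 73723548 to 73725141 and scored 1625.65, and the right one lay from 73725835 to 73727169 and scored 2237.5. The gap between them was 622 bases in Cre and 693 bases in GFP cells. Relative to the list they barely moved: 34.1% and 28.7% of the Cre list scored higher, against 31.8% and 25.8% of the GFP list. Paired H3K4me3 peaks with a short gap are common, and 39.3% of the Cre and 44.3% of the GFP H3K4me3 peaks had another peak of their list within 1000 bases. In the 3 windows 7 of 9 Cre and 6 of 9 GFP peaks did.

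The left peak of this pair was the only H3K4me3 peak of the 3 windows that overlapped H3K27me3, an arrangement called bivalent when both marks sit on the same chromatin, which peaks from a cell population do not show. The shared stretch was 1707 bases in Cre and 1453 bases in GFP cells. Of all H3K4me3 peaks, 13.1% in Cre and 12.3% in GFP cells overlapped H3K27me3, so 1 of 9 in each condition was near the background. Of the H3K27me3 peak itself, 1707 of 1768 bases in Cre cells and 1453 of 4554 bases in GFP cells lay in H3K4me3.

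Acetylation of the pair ranked higher in Cre cells. The left H3Ac peak had a score of 1199.09 in Cre and 443 in GFP cells, and was outranked by 19.5% of the Cre list (19.1 to 19.8) and 34.7% of the GFP list (34.3 to 35.2). The right one had a score of 2255.96 in Cre and 1372.1 in GFP cells, and was outranked by 9.68% and 16.7%. Among uniquely paired H3Ac peaks their ranks were 23.5 and 10.7 percentile points higher in Cre than in GFP cells, and 94.4% and 81.1% of pairs had a smaller gain. The right peak was at the same time narrower, with 1817 bases in Cre and 2784 bases in GFP cells.

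A second strong site ended 82.2 kb from this pair in Cre cells and 81.8 kb from it in GFP cells. RefSeq on GRCm38.p6 places Lpar6, which encodes a lysophosphatidic acid receptor, and the microRNA gene Mir687 inside the span of Rb1, so that a promoter-type peak within the window need not belong to Rb1. No peak was assigned to a gene. The H3K4me3 peak of this site was at the ceiling score of 3100 in both conditions, with 4205 bases in Cre and 5090 bases in GFP cells, and only 4.42% of the Cre and 1.48% of the GFP list were wider. H3Ac at the site reached 3100 in both conditions too. In Cre cells it was split into a peak of 5205 bases and a weaker one of 1961 bases with a score of 569.39, and in GFP cells it formed 1 domain of 8973 bases, wider than all but 0.392% of the list.

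Between these sites acetylation was weak and did not coincide. Cre cells had 1 H3Ac peak there without a counterpart, which lay from 73701743 to 73704296 and scored 171.92. GFP cells had 4, all between 73679957 and 73698896, with scores from 54.07 to 71.14, so that 87.1% to 96.8% of the list scored higher. Near the left site a weak H3Ac peak had 968 bases and a score of 77.32 in Cre cells and 1827 bases and a score of 154.77 in GFP cells. In all, H3Ac covered 14.5 kb of the Rb1 window in Cre cells and 23.0 kb in GFP cells, a ratio of 0.629. Of autosomal 160 kb tiles with an H3Ac peak, 27.5% were covered at least 1.5 times less in Cre cells and 10.2% at least 1.5 times more. Tiles with a peak in Cre or GFP cells alone are included. No H3K9me3 peak lay in the window, and the nearest was 262 kb away in Cre cells and 243 kb in GFP cells.

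In the Rbl1 window a promoter-type peak at the high-coordinate end was wider and ranked higher in Cre cells. Rbl1 is transcribed from the minus strand, so that its start faces this end. The left H3K4me3 peak of a pair there reached in Cre cells from 157028151 to 157030012, a width of 1862 bases, and scored 3196.84. In GFP cells it reached from 157028772 to 157029936, a width of 1165 bases, and scored 1066.98. The Cre peak lay in the ceiling class, the top 26.3% of its list, and in GFP cells 39.4% of the list scored higher (exact 95% interval 38.7 to 40.0). Its rank among 17237 uniquely paired H3K4me3 peaks was 30.3 percentile points higher in Cre than in GFP cells, with the ceiling class tied. Of these pairs, 99.4% had a smaller gain. The Cre percentile, 85.9, was the middle of the tied class, so the size of the gain depends on that tie. Its size under another order of the class was not tested. The additional 621 bases on the low-coordinate side accounted for most of the added width.

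The right H3K4me3 peak of the pair changed little. In Cre cells it reached from 157030211 to 157031580, a width of 1370 bases, and scored 1052.28. In GFP cells it reached from 157030236 to 157031451, a width of 1216 bases, and scored 648.66. In the Cre list 47.0% of peaks scored higher, and in the GFP list 47.7%. The pair was separated by 198 bases in Cre and 299 bases in GFP cells.

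Of the 9 paired H3K4me3 peaks in the 3 windows, the left Rbl1 peak was the only one to gain at least 10 percentile points in Cre cells, as 13.1% of all pairs did, and 0 of 9 lost as much, against 8.41% of all pairs. Among the 4505 pairs with a GFP score from 500 to 2000, 9.17% gained at least 10 points and 1.02% at least 30 points. This score range was chosen after the values were seen, so these shares are no independent background. The left Rbl1 peak was at least 1.5 times wider in Cre cells, as was the one that crosses the low-coordinate edge of the Rbl1 window. That made 2 of 9, against 7.65% of all pairs. None of the 9 was as much narrower, against 1.53% of all pairs.

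**Figure D3:**
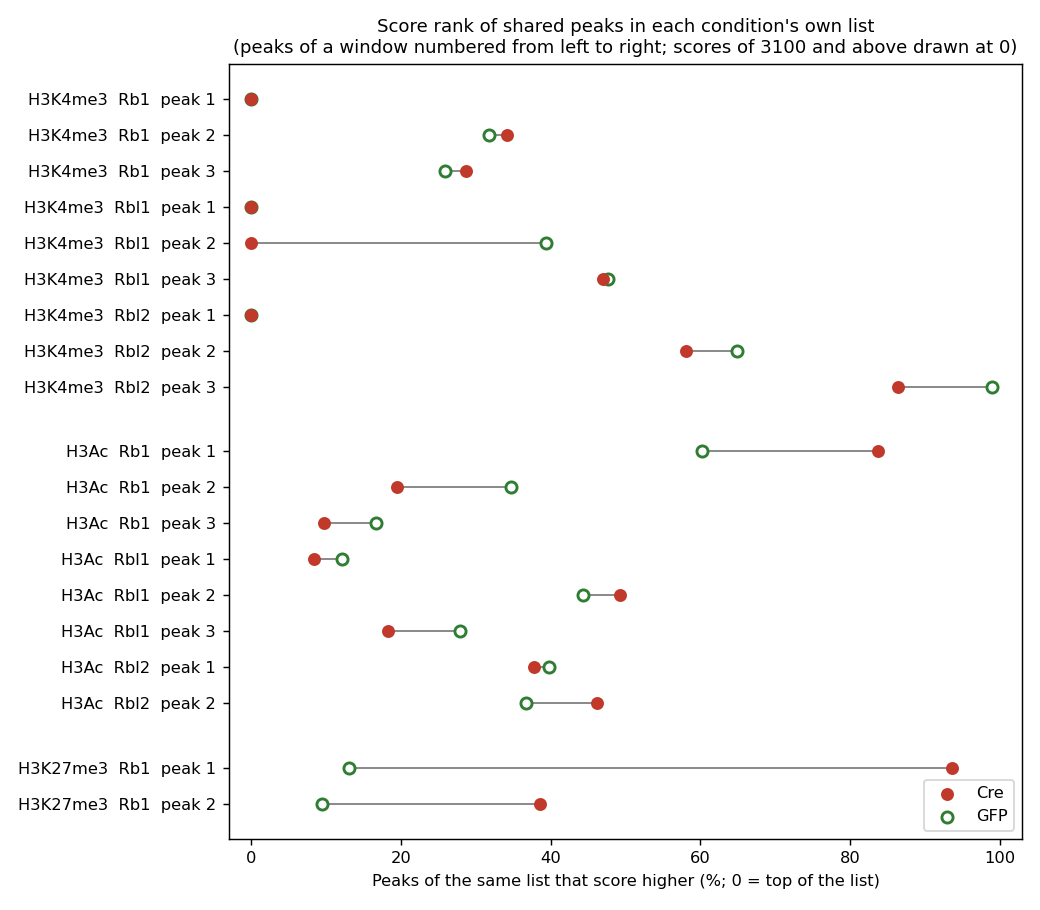
Percentage of the same list that scored higher than each uniquely paired peak (0 is the top of the list, where all peaks of the ceiling class are drawn), with Cre as filled and GFP as open points. The longest lines belong to H3K27me3 peak 1 of the Rb1 window, with 93.6% in Cre and 13.1% in GFP cells, and to H3K4me3 peak 2 of the Rbl1 window, which was in the ceiling class in Cre cells and had 39.4% above it in GFP cells.

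H3Ac at the same end of the Rbl1 window moved the same way. In Cre cells a peak of 3343 bases, from 157026652 to 157029994, scored 2686.5 and was outranked by 7.44% of the list (7.20 to 7.70). In GFP cells this stretch held 2 peaks, of 1253 and 1728 bases, with scores of 147.06 and 929.91, outranked by 61.8% and 22.3% of the list. To their right, an H3Ac peak had a score of 1291.32 and 1581 bases in Cre cells and a score of 642.33 and 1469 bases in GFP cells. The percentages scoring higher were 18.3% in Cre and 28.0% in GFP cells, and its rank among paired peaks was 15.7 points higher in Cre cells. Of the 8 paired H3Ac peaks in the 3 windows, 3 gained at least 10 points in Cre cells and 1 lost as much, against 20.1% and 19% of all pairs. By width, 0 of 8 were at least 1.5 times wider and 2 of 8 as much narrower, against 4.5% and 11.4% of all pairs.

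A second strong site crossed the low-coordinate edge of the Rbl1 window. RefSeq on GRCm38.p6 lists Samhd1, which encodes a deoxynucleotide triphosphohydrolase, as the neighbour of Rbl1 on that side and Mroh8 on the other. The H3K4me3 peak there was in the ceiling class in both conditions, with a score of 3100 and 2892 bases in Cre cells and a score of 3162.2 and 1818 bases in GFP cells. The H3Ac peak spanned 4289 bases with a score of 2487.66 in Cre and 4320 bases with a score of 1912.62 in GFP cells. A smaller H3Ac peak beside it had scores of 232.36 in Cre and 284.29 in GFP cells.

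Inside the gene window, H3Ac was found in GFP cells only at 2 places. The peak from 156971568 to 156973693 scored 211.32, and the peak from 156995343 to 156996596 scored 116.69. H3Ac covered 6.59 kb of the Rbl1 window in Cre cells and 9.81 kb in GFP cells. The ratio, 0.672, did not pass 1.5 times, which 29.1% of autosomal 80 kb tiles with an H3Ac peak did in that direction. In the other direction 12.7% did. H3K4me3 covered 4.22 kb in Cre cells and 3.29 kb in GFP cells.

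Repressive marks of the Rbl1 window lay beyond the promoter-type pair. An H3K27me3 stretch at the high-coordinate edge was split into 2 peaks in Cre cells, 1 of 1229 bases in the window, scoring 102.01, and 1 just outside it, from 157040346 to 157041555, scoring 70.24. In GFP cells it was a single peak of 2912 bases, from 157038743 to 157041654, which scored 297.76, and the Cre peaks covered 81.1% of it. In the Cre list 61.9% of peaks scored higher than the one in the window, and in the GFP list 24.5% scored higher than the single peak. GFP cells had another, of 718 bases with a score of 63.78 and no Cre counterpart. Within the window H3K27me3 covered 1.23 kb in Cre cells and 1.98 kb in GFP cells, a ratio of 0.622. The GFP length included this weak peak, and parts of the edge stretch outside the window were not counted in either condition. Of autosomal 80 kb tiles with the mark, 30.4% were covered at least 1.5 times less in Cre cells and 18% at least 1.5 times more. The single H3K9me3 peak, in Cre cells from 157033195 to 157033734, was 540 bases wide and scored 52.12, and 89.9% of the Cre list scored higher. Coverage at least 1.5 times higher in Cre cells was found in 11.7% of 80 kb tiles with H3K9me3, and coverage at least 1.5 times lower in 79.7%.

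The Rbl2 window held the same H3K4me3 sites in Cre and GFP cells and neither H3K27me3 nor H3K9me3. Its main H3K4me3 peak was at the ceiling score of 3100 in both, with 2857 bases in Cre cells, from 93592977 to 93595833, and 2925 bases in GFP cells, from 93592934 to 93595858. Its ends differed by 43 and 25 bases. H3Ac lay over it as 1 peak of 3062 bases with a score of 1810.64 in Cre cells, outranked by 13.0% of the list. In GFP cells it was split by a gap of 250 bases into peaks of 1363 and 1728 bases, with scores of 563.61 and 1532.08, outranked by 30.2% and 15.2%. The peak stood near the low-coordinate end of the window, the side that the start of Rbl2, a plus-strand gene, faces.

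At the other end of the Rbl2 window lay a weaker pair, on the side where RefSeq on GRCm38.p6 lists Aktip, an overlapping gene whose product binds telomeres and the AKT kinase. The H3K4me3 scores of the pair were 519.2 and 98.09 in Cre and 224.69 and 51.52 in GFP cells. In the Cre list 58.1% and 86.3% of peaks scored higher, and in the GFP list 64.9% and 99.0%. Widths were nearly equal, with 1221 and 788 bases in Cre and 1336 and 790 bases in GFP cells. For H3Ac the left peak scored 392.73 in Cre and 347.21 in GFP cells and the right one 264.51 in Cre and 403.21 in GFP cells, so that their order was reversed between the conditions. Covered lengths in the Rbl2 window were 4.87 kb in Cre cells and 5.05 kb in GFP cells for H3K4me3, and 5.50 kb in Cre cells and 5.34 kb in GFP cells for H3Ac. The nearest H3K27me3 peak lay 33.5 kb outside in Cre cells and 33.6 kb in GFP cells.

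**Figure D4:**
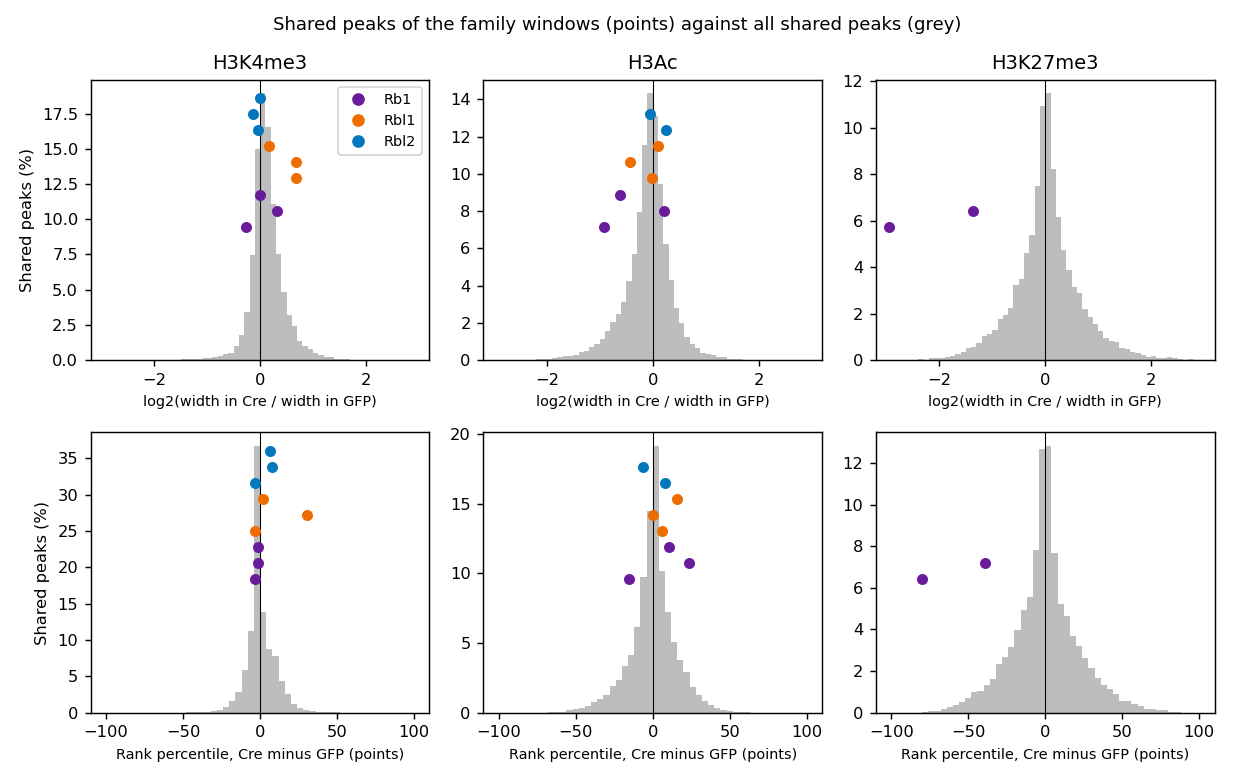
Grey bars give the distribution over all uniquely paired peaks of a mark, for the log2 width ratio of Cre over GFP (top) and for the rank percentile in Cre minus that in GFP (bottom). Points are the paired peaks of the windows, at arbitrary height. Both H3K27me3 points of Rb1 lie far to the left, at ratios of 0.130 and 0.388. With the ceiling class tied, 1 H3K4me3 point of Rbl1 lies 30.3 points to the right.

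The 3 windows are set side by side without a test of their difference. In the Rb1 window H3K27me3 was shorter in Cre cells, the ranks of the H3K4me3 pair among paired peaks moved by -1.04 and -1.46 points, and the H3Ac over the pair ranked 23.5 and 10.7 points higher. In the Rbl1 window 1 H3K4me3 peak ranked 30.3 points higher in Cre cells, a size that depends on tying the ceiling class. The paired H3Ac peak beside it ranked 15.7 points higher. The H3K27me3 coverage ratio of that window was 0.622, but its GFP length included a weak unmatched peak of 718 bases with a score of 63.78. In the Rbl2 window the main H3K4me3 peak had nearly the same ends in both conditions. The median Cre over GFP width ratio of the paired H3K4me3 peaks was 0.999 in the windows and 1.07 over all pairs, and that of H3Ac was 0.978 and 0.963. For H3K27me3, with only 2 pairs, the median was 0.259 against 1.01 over all pairs. Whether these differences would recur in other cultures was not tested, since each list is 1 library.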

How the data were processed

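Of 18 samples, the 8 histone libraries with a peak list were used, and 10 were not analysed here. The submitters' processing notes name BWA, SAMtools 0.1.18, bedtools 2.16.2, MACS 1.4.1 (a peak caller) and build NCBIM37, without roles. Each deposited list holds the peaks of 1 library, with a score per peak whose unit, control library and threshold are not given in the sources used here. Lists held 3985 to 48778 peaks. Depth was unknown. The intervals (exact Clopper-Pearson, 95%) treat the peaks of a list as independent draws, although each share was taken over the whole list. They do not measure variation between libraries or cultures, so intervals that do not overlap are no evidence of a difference between Cre and GFP cells.

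Peaks were taken where they overlapped a window by at least 1 base. Windows, gene choice and word list were chosen with earlier results of these data known. Uniquely paired peaks overlap exactly 1 peak in the other list, which overlaps no other, and percentiles were taken among them with scores of 3100 and above tied. Positions count from 1. Background shares by GFP score were chosen after the values were seen. The overlap code was tested on simulated lists. Promoter sequences and gene neighbours came from RefSeq, GRCm38.p6. Python 3.11.15, NumPy 2.4.6, pandas 2.3.3, SciPy 1.17.1 and matplotlib 3.10.9 were used.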

Additional observations from a re-analysis of the deposited data

How the results depend on the processing

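With windows widened by 50 kb on each side, the number of peaks was 20 in Cre and 26 in GFP cells for Rb1, 20 and 28 for Rbl1, and 11 and 11 for Rbl2, so that the Rbl2 difference vanished. Merging peaks within 1000 bases left 8 peaks in Cre and 9 in GFP cells for Rb1, 6 and 8 for Rbl1, and 4 and 4 for Rbl2. A minimum score of 100, the midpoint rule, coverage of at least 50% by the counterpart and equal numbers of top-scoring peaks kept every count within 1.5 times. The percentage of the H3K4me3 list above the leading peak depended on the ceiling: 0.937% in Cre and 0.861% in GFP cells for Rb1 and for Rbl2 became 13.6% and 10.0% with each tie counted as 0.5 of a higher peak, and all 6 values became 0 with scores of 3100 and above as 1 class (an alternative chosen after seeing the data). Among Cre peaks with a counterpart it was 1.07% for Rb1 and Rbl2. By width it was 4.42% in Cre and 1.48% in GFP cells for Rb1 and 16.8% and 11.1% for Rbl2. For Rbl1 it was 41.4% in Cre and 33.4% in GFP cells, but these are different sites (starting at 157028151 in Cre and at 156959089 in GFP cells), chosen by the order above 3100. Of the same percentages for the other marks, 4 of 11 moved over autosomes, 10 of 10 among peaks with a counterpart, 11 of 11 by width, 2 of 11 with ties and 2 of 11 with the ceiling class. Small and large shifts alike were counted as moved. For H3K27me3 of Rb1 the GFP value went from 9.52% to 10.0% over autosomes. Its Cre value went from 38.6% to 53.5% among peaks with a counterpart.

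No paired analysis was possible because each mark and condition has 1 library. No library was left out, for the same reason.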

Other observations

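Outside the windows, beside the Rb1 window, the nearest H3K4me3 peak lay 35.4 kb away in both conditions, with a score of 1188.6 in Cre and 556.9 in GFP cells. The nearest H3K4me3 peak to the Rbl2 window lay 99.0 kb away in Cre and 99.2 kb in GFP cells, with scores of 3100 and 2986.45.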
